A study of Mus musculus with 10 samples.

Results

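The genes described here are 34 listed enzymes and regulators of glycolysis, pyruvate use and the pentose phosphate pathway, out of 25579 genes in the RNA-seq tables of B cell precursors from mice with different Pax5 alleles. The rule that lists them goes by function and uses no measured value, although earlier results of these data were known when it was made. All 34 symbols were found in the tables, and 33 of them reached 1 TPM (transcript abundance corrected for gene length and library size) in at least 1 library and were tested. Pax5 is the transcription factor that commits lymphoid progenitors to the B cell lineage, and the study compared a hypomorphic allele carrying the amino acid exchange R31Q with normal, single-copy and absent Pax5. There were 2 mRNA libraries for each of 4 genotypes, all on a C57BL/6 background and all sorted from bone marrow without culture. Pax5(+/+) pro-B cells carried both normal alleles. Pax5(+/-) pro-B cells carried 1 normal and 1 null allele, and Pax5(R31Q/-) pro-B cells carried the R31Q allele, made by genome editing in zygotes, over the null allele. Pax5(fl/fl) Vav-Cre cells carried floxed Pax5 alleles and the Vav-Cre transgene, which is active throughout blood cells, and their label calls them progenitors and not pro-B cells. The study's text speaks of sorted pro-B cells for this genotype too, and the gate used for it is not given in the sources used here. The age of the mice behind each library is not given in the sources used here, and nothing there says whether animals were pooled, so the spread between libraries of a genotype may be partly technical.

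Glycolysis breaks glucose down to pyruvate, and the regulated steps are those of hexokinase, phosphofructokinase and pyruvate kinase. Pyruvate is either reduced to lactate or passed to the mitochondria through pyruvate dehydrogenase, which the pyruvate dehydrogenase kinases switch off by phosphorylation. The pentose phosphate pathway branches off after the first step. Its oxidative arm makes NADPH, and its non-oxidative arm makes the ribose that dividing lymphocytes need for nucleotides.

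The libraries held between 21625407 reads on genes, in Pax5(fl/fl) Vav-Cre replicate 1, and 34488454 reads, so that all members but Hk3, Aldoc, Eno2, Ldhb and Fbp1 had more than 100 reads in every library. The level of Pax5 mRNA was 418 and 444 TPM in Pax5(+/+), 272 and 287 TPM in Pax5(+/-), 306 and 293 TPM in Pax5(R31Q/-), and 1242 and 1409 TPM in Pax5(fl/fl) Vav-Cre, and since a value for the whole gene does not separate a floxed part from the rest it does not check the deletion. The 11 pro-B cell markers were all above 0 in each library, whereas of 6 T cell genes Cd3e, Cd3d, Cd3g and Bcl11b stayed below 1 TPM. The other two were present in every library and higher in Pax5(fl/fl) Vav-Cre, Lck at 273 and 271 TPM against 60.4 and 63.4 TPM in Pax5(+/+) and Tcf7 at 101 and 92.1 TPM against 32.8 and 47.8 TPM. Of 4 NK cell genes, Nkg7 read 56.2 and 24.7 TPM in Pax5(fl/fl) Vav-Cre against 6.45 and 6.34 TPM, and Gzma read 3.85 and 3.53 TPM against 0.163 and 0.274 TPM, while Klrb1c was lower. Lck was also higher in Pax5(R31Q/-) than in Pax5(+/+), at 94.4 and 98.7 TPM (limma adjusted p = 0.0131), and read 96.1 and 97.4 TPM in Pax5(+/-). The part of such cells in the results for these genotypes was not tested. Pax5(fl/fl) Vav-Cre replicate 1 stood apart by its granulocyte genes, such as S100a9 at 1105 TPM against 140 TPM in replicate 2. Of the 8 myeloid markers Ctsg and Csf1r were higher in Pax5(fl/fl) Vav-Cre than in Pax5(+/+) by limma, with Ctsg at 71.7 and 42.4 TPM against 4.03 and 2.83 TPM, so that these 2 were not confined to replicate 1. The RNA came from bulk cell populations, in which fewer cells of a type and less RNA per cell cannot be told apart.

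In Pax5(+/+) pro-B cells the members together made up 4965 and 5166 TPM. The highest levels were those of the pentose phosphate enzymes Pgls (6-phosphogluconolactonase, 915 ± 154 TPM, SD, n = 2), Tkt (transketolase, 530 ± 59.2) and Taldo1 (transaldolase, 461 ± 16.5), of Pkm (pyruvate kinase, 550 ± 41.2) and of Ldha (the lactate dehydrogenase chain of glycolytic cells, 441 ± 55.6). Pkm, Tkt, Taldo1 and Ldha lay close together, and the values of Pkm and Tkt overlapped between libraries. Next came Gpi1 (glucose phosphate isomerase) at 357 ± 33.4 TPM, Aldoa (aldolase) at 260 ± 43.5 TPM, Tpi1 (triose phosphate isomerase) at 230 ± 23.6 TPM and Eno1 (enolase) at 223 ± 33.1 TPM. Hexokinase, the entry step, was represented by Hk1 at 81.3 ± 6.06 TPM, with Hk2 at 8.23 ± 1.26 TPM and Hk3 at 2.25 ± 0.394 TPM. The lowest members were Aldoc, the brain-type aldolase, at 1.79 ± 0.444 TPM, and Eno2, the neuronal enolase, which did not pass 0.0741 TPM in any library and was not tested.

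The authors kept only reads that map to 1 place. Several lower glycolysis transcripts share much of their sequence with other places in the mouse genome. The part of this overlap in the measured levels was not tested. Of all 50-base stretches of the Gapdh transcript, the length of a read here, 85.7% occurred elsewhere in the genome without a mismatch, at up to 83 other places. The share was 92.9% for Pgk1 (phosphoglycerate kinase), 91.8% for Pgam1 (phosphoglycerate mutase) and 75.7% for Eno1, at up to 5, 4 and 6 other places. Gapdh, normally among the most abundant mRNAs of a cell, read only 10.3 to 28.9 TPM across the 8 libraries, and Pgk1 read 120 TPM in one Pax5(+/+) library and 53.1 TPM in the other. Ldhb reached 33.6%, Ldha 28.3%, Tpi1 25.9%, Pkm 25.4% and Gpi1 24.6%. The share was 0 for Fbp1, Pfkp, Pfkm, Pdk2, Pfkfb4, Tkt, Pgd and Rpia. Eno1b, a near-identical retrogene copy of Eno1, read 23.8 to 61.8 TPM, and how the counts divided between the pair is uncertain.

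**Figure D1:**
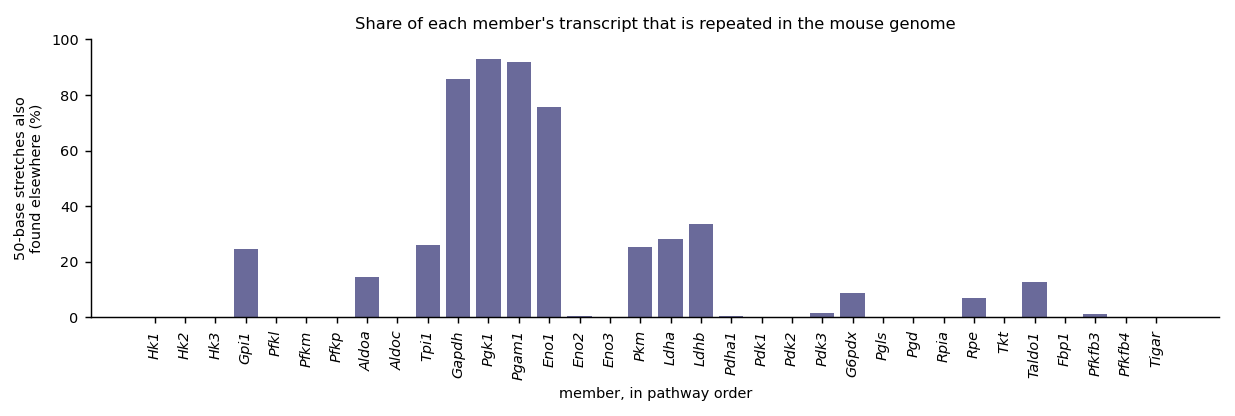
The share of 50-base stretches of each member's longest curated transcript that also occurs elsewhere in the mouse genome (y axis, percent), with the 34 members in pathway order on the x axis. Gapdh, Pgk1, Pgam1 and Eno1 lie between 75.7% and 92.9%, and Fbp1, Pfkp and Pdk2 lie at 0.

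The R31Q allele was accompanied by few differences in these genes that passed the test. Of 33 tested members, 1 was higher and 2 were lower in Pax5(R31Q/-) than in Pax5(+/+) (limma on log2(TPM + 1), adjusted p below 0.05 over all 13436 genes), beside 1.62% of all genes higher and 2.55% lower. The higher member was Fbp1, which encodes fructose bisphosphatase, the enzyme that runs the phosphofructokinase step backwards in gluconeogenesis. The lower ones were Pfkp, the platelet-type phosphofructokinase, and Pdk2, a pyruvate dehydrogenase kinase. At an unadjusted limma p below 0.05 there were 8 members (24.2%), beside 18.8% of all genes. The median log2 fold change was 0.04 over the members and 0.04 over all genes.

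Fbp1 (chr13:62864753-62888298 in GRCm38, minus strand) read 8.26 and 9.75 TPM in Pax5(+/+), 15.2 and 9.68 TPM in Pax5(+/-), 39.2 and 32.4 TPM in Pax5(R31Q/-), and 4.52 and 3.30 TPM in Pax5(fl/fl) Vav-Cre. Both R31Q libraries lay above every other library, and both Pax5(fl/fl) Vav-Cre libraries lay below every other one. The log2 fold change of Pax5(R31Q/-) against Pax5(+/+) was 1.88 ± 0.24 (SE, limma adjusted p = 0.00695), which made Fbp1 the member called past 3-fold, beside 0.298% of all genes called higher past 3-fold. Against Pax5(fl/fl) Vav-Cre it was 2.91 ± 0.24 (limma adjusted p = 0.000174). The genotype without functional Pax5 differed from Pax5(+/+) in the opposite direction, with a log2 fold change of -1.03 ± 0.24 (limma adjusted p = 0.0134). The call for R31Q was lost without Pax5(+/+) replicate 2 (adjusted p = 0.0547 with limma), without Pax5(R31Q/-) replicate 1 (0.0887) and without Pax5(R31Q/-) replicate 2 (0.065), and the fold change stayed between 1.74 and 2.01 on the log2 scale. The call for Pax5(fl/fl) Vav-Cre was lost without Pax5(+/+) replicate 2 (limma adjusted p = 0.0784). Summed levels of 8 myeloid marker genes ran from 939 to 984 TPM in Pax5(R31Q/-), from 378 to 597 TPM in Pax5(+/+), from 651 to 1514 TPM in Pax5(+/-) and from 350 to 2119 TPM in Pax5(fl/fl) Vav-Cre. The libraries with the highest myeloid sums, Pax5(fl/fl) Vav-Cre replicate 1 and Pax5(+/-) replicate 2, had Fbp1 at 4.52 and 9.68 TPM. The part of myeloid cells in the Fbp1 values was not tested.

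Pfkp (chr13:6579874-6649060, minus strand) read 33.9 and 34.6 TPM in Pax5(+/+), 34.3 and 36.3 TPM in Pax5(+/-), 22.3 and 20.4 TPM in Pax5(R31Q/-), and 20.3 and 22.1 TPM in Pax5(fl/fl) Vav-Cre. The R31Q and Pax5(fl/fl) Vav-Cre libraries overlapped each other and lay below all libraries with a normal allele. The log2 fold change against Pax5(+/+) was -0.66 ± 0.12 for R31Q (limma adjusted p = 0.0279) and -0.67 ± 0.12 for Pax5(fl/fl) Vav-Cre (limma adjusted p = 0.0047), both against the same Pax5(+/+) libraries. Between R31Q and Pax5(fl/fl) Vav-Cre it was 0.01 ± 0.12 (limma adjusted p = 0.958). The R31Q call was lost without either library of Pax5(+/+), Pax5(+/-) or Pax5(R31Q/-), with limma adjusted p-values up to 0.248 and fold changes between -0.72 and -0.59, while the Pax5(fl/fl) Vav-Cre call held with each of the 8 libraries left out. Exons of Pfkp overlap those of Pitrm1 on the other strand, and the sources used here do not say whether reads were counted by strand. Pitrm1 read 45.7 to 68.1 TPM.

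Pdk2 (chr11:95026258-95041371, minus strand) read 41.7 and 58.1 TPM in Pax5(+/+), 37.5 and 28.1 TPM in Pax5(+/-), 22.7 and 20.4 TPM in Pax5(R31Q/-), and 37.0 and 27.2 TPM in Pax5(fl/fl) Vav-Cre. Both R31Q libraries were below the other 6, and the Pax5(+/-) and Pax5(fl/fl) Vav-Cre libraries overlapped. For R31Q the log2 fold change was -1.16 ± 0.22 (limma adjusted p = 0.0323). It was -0.58 ± 0.22 for Pax5(+/-) (limma adjusted p = 0.715) and -0.62 ± 0.22 for Pax5(fl/fl) Vav-Cre (limma adjusted p = 0.0676). The R31Q call was lost without Pax5(+/+) replicate 2, where the log2 fold change was -0.92 (limma adjusted p = 0.199), without either Pax5(R31Q/-) library (0.176 and 0.25) and without either Pax5(+/-) library (0.0572 and 0.056). It was also lost when low genes were kept in the fit (limma adjusted p = 0.0732).

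**Figure D2:**
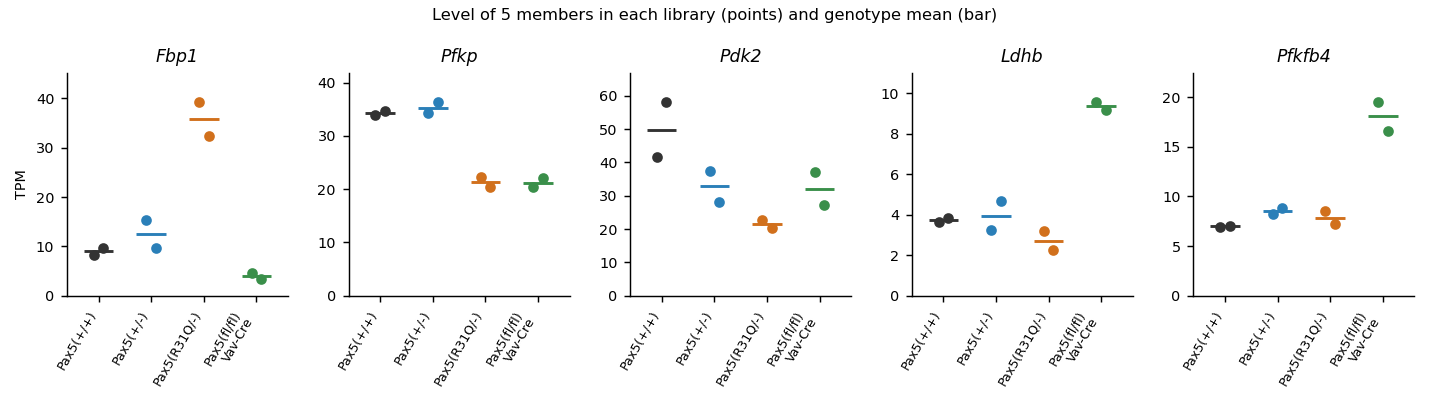
Levels in TPM (y axes, starting at 0) of Fbp1, Pfkp, Pdk2, Ldhb and Pfkfb4 in the 2 libraries of each genotype (points) with the genotype mean (bar). Fbp1 reaches 39.2 and 32.4 TPM in Pax5(R31Q/-) alone, Pfkp is lower in both Pax5(R31Q/-) and Pax5(fl/fl) Vav-Cre, and Ldhb and Pfkfb4 are higher in Pax5(fl/fl) Vav-Cre.

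Both Pax5(R31Q/-) libraries lay above both Pax5(+/+) libraries in 9 of 33 members (27.3%) and below them in 10 (30.3%). Among all genes tested these shares were 34.6% and 25.0%. The other 30 tested members did not pass the test in Pax5(R31Q/-). The nearest was Pfkm, the muscle-type phosphofructokinase, at 23.99 and 25.8 TPM in Pax5(+/+) and 17.5 and 17.6 TPM in Pax5(R31Q/-), with no overlap between the groups (log2 fold change -0.48 ± 0.12, limma adjusted p = 0.0737). It was called lower by limma-voom (adjusted p = 0.0479) and by limma without either Pax5(fl/fl) Vav-Cre library (0.0413 and 0.0404). Hk2 read 9.11 and 7.34 TPM in Pax5(+/+) and 12.4 and 12.0 TPM in Pax5(R31Q/-) (log2 fold change 0.52 ± 0.17, limma adjusted p = 0.148). Rpia, ribose phosphate isomerase, read 142 and 113 TPM in Pax5(+/+) and 173 and 172 TPM in Pax5(R31Q/-) (log2 fold change 0.44 ± 0.16, limma adjusted p = 0.187). All 3 oxidative pentose phosphate genes lay within 0.10 of 0 on the log2 scale, with Pgd at 0.10 ± 0.10 as the farthest.

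Loss of 1 Pax5 copy was accompanied by no call among the members. In Pax5(+/-) against Pax5(+/+) pro-B cells, 0 of 33 members were higher and 0 were lower by limma, beside 0% and 0.0223% of all genes, and limma-voom on the recovered reads also called 0. At an unadjusted p below 0.05 there was 1 member, Pdk2 (3.03%), beside 6.06% of all genes. Log2 fold changes ran from -0.58 to 0.64, with a median of 0.12 over the members and 0.02 over all genes, and the farthest above 0 was Hk3 at 0.64 ± 0.62. The absence of calls does not show that the levels were equal.

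Pax5(R31Q/-) and Pax5(+/-) cells each carry 1 null allele, so this comparison sets the R31Q protein against the normal one from a single copy. With limma 0 of 33 members were higher and 0 lower, beside 0.268% of all genes higher and 0.35% lower. At an unadjusted p below 0.05 there were 5 members (15.2%), beside 8.79% of all genes, and limma-voom called Fbp1 higher and Pfkp lower. Fbp1 differed by 1.48 ± 0.24 on the log2 scale (limma adjusted p = 0.0512) and Pfkp by -0.70 ± 0.12 (limma adjusted p = 0.0663). Pdk2 differed by -0.57 ± 0.22 (limma adjusted p = 0.491). Without either Pax5(+/-) library the difference of Fbp1 was 1.78 and 1.17, and limma adjusted p was 0.166 and 0.321.

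Without functional Pax5, 13 of 33 members were higher and 4 lower than in Pax5(+/+) pro-B cells by the same test, beside 16.2% of all genes higher and 19.7% lower. None passed 3-fold. The members' median log2 fold change was 0.36. The median over all genes was -0.11 on the TPM scale and -0.02 after median-ratio scaling. That scaling gave 14 members higher and 4 lower, beside 19.6% and 18.6% of all genes. The members' median was 0.20 without Pax5(+/+) replicate 2, and the median over all genes was 0.01 without Pax5(fl/fl) Vav-Cre replicate 1 and -0.22 without its replicate 2. With each of the 8 libraries left out in turn, 9 of the 17 calls always held, namely Pfkl, Aldoc, Tpi1, Ldhb, Pdk1, Pgd and Pfkfb4 higher and Pfkp and Pfkfb3 lower. Without Pax5(fl/fl) Vav-Cre replicate 1, the library with the most S100a9, 10 members were higher and 4 lower, beside 17.0% and 15.5% of all genes, and without replicate 2 they were 15 and 6, beside 16.4% and 31.7%. A fit to these 2 genotypes alone called 4 members higher (Aldoc, Ldhb, Pdk1 and Pfkfb4) and 1 lower (Fbp1), beside 9.44% and 10.8% of all genes.

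At the top of glycolysis Hk2, the inducible hexokinase, rose by 0.73 ± 0.17 on the log2 scale in Pax5(fl/fl) Vav-Cre cells (limma adjusted p = 0.0119), a call lost without Pax5(+/+) replicate 2 (0.0605). Hk1 did not pass the test (0.03 ± 0.16, limma adjusted p = 0.901). Hk3, the hexokinase of myeloid cells, read 9.94 TPM in replicate 1 and 1.47 TPM in replicate 2 and did not pass the test. The granulocyte genes had the same order in these libraries, and the part of such cells in the Hk3 values was not tested. In upper glycolysis 5 of 7 genes rose and 1 fell, beside the 16.2% and 19.7% of all genes. Gpi1 rose by 0.52 ± 0.12 and the liver-type phosphofructokinase Pfkl by 0.57 ± 0.11. Tpi1 rose by 0.67 ± 0.14, from 246 and 213 TPM to 411 and 322 TPM. Aldoc rose by 0.98 ± 0.18 but stayed under 5 TPM, and Pfkm rose by 0.36 ± 0.12 with a limma adjusted p of 0.0465 that 7 of 8 left-out libraries raised above the threshold. Aldoa, the main aldolase, read 369 and 314 TPM against 230 and 291 TPM and did not pass the test (limma adjusted p = 0.0661). Without Pax5(+/+) replicate 1 the limma adjusted p of Gpi1 was 0.0527.

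In lower glycolysis 1 of 6 tested genes rose (16.7%, close to the 16.2% of all genes), Pgam1 by 0.34 ± 0.11 (limma adjusted p = 0.0461), of whose transcript 91.8% has a copy elsewhere and whose call was lost with 7 of 8 libraries left out. Pkm read 547 and 468 TPM against 520 and 579 TPM, and its log2 fold change was -0.12 ± 0.12 (limma adjusted p = 0.465). Eno3, the muscle-type enolase, read 7.21 and 10.4 TPM against 9.86 and 15.1 TPM and did not pass the test (log2 fold change -0.45 ± 0.23). Pgk1 had a log2 fold change of 0.76 ± 0.39, with Pax5(+/+) libraries at 120 and 53.1 TPM (limma adjusted p = 0.16).

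At the lactate step Ldhb (chr6:142490249-142507957, minus strand), the lactate dehydrogenase chain typical of oxidative tissues, read 3.64 and 3.83 TPM in Pax5(+/+), 3.22 and 4.70 TPM in Pax5(+/-), 3.19 and 2.25 TPM in Pax5(R31Q/-), and 9.56 and 9.17 TPM in Pax5(fl/fl) Vav-Cre. Both Pax5(fl/fl) Vav-Cre libraries lay above the other 6, and both R31Q libraries lay below those of Pax5(+/+) and Pax5(+/-), which overlapped each other. The difference between R31Q and Pax5(+/+) did not pass the test (log2 fold change -0.36 ± 0.21, limma adjusted p = 0.391). The log2 fold change against Pax5(+/+) was 1.13 ± 0.21 (limma adjusted p = 0.005). Ldha, the far more abundant chain at 401 to 541 TPM, had a log2 fold change of 0.23 ± 0.12 (limma adjusted p = 0.173).

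Of the kinases that switch off pyruvate dehydrogenase, Pdk1, the hypoxia-inducible one, rose in Pax5(fl/fl) Vav-Cre cells from 45.2 and 56.0 TPM to 94.3 and 98.2 TPM (log2 fold change 0.92 ± 0.13, limma adjusted p = 0.00123). Pdk3 read 26.2 and 34.02 TPM against 40.04 and 38.1 TPM and did not pass the test (limma adjusted p = 0.0799). Pdha1, the catalytic chain of pyruvate dehydrogenase, read 152 and 160 TPM against 136 and 108 TPM (log2 fold change 0.37 ± 0.13, limma adjusted p = 0.0616).

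In the oxidative arm of the pentose phosphate pathway 2 of 3 genes rose in Pax5(fl/fl) Vav-Cre cells, beside 16.2% of all genes. They were G6pdx, glucose phosphate dehydrogenase and the NADPH-producing entry enzyme, by 0.60 ± 0.16, and Pgd, phosphogluconate dehydrogenase, by 0.54 ± 0.10, from 136 and 127 TPM to 190 and 192 TPM. The G6pdx call was lost without Pax5(fl/fl) Vav-Cre replicate 1 and without 4 other libraries, with a highest limma adjusted p of 0.121. Pgls, the enzyme between them, read 1029 and 782 TPM against 807 and 1024 TPM, with a log2 fold change of -0.02 ± 0.22. In the non-oxidative arm Tkt rose by 0.51 ± 0.14, from 488 and 572 TPM to 843 and 675 TPM, and Rpia fell by 0.48 on the log2 scale (SE 0.16), from 142 and 113 TPM to 79.8 and 103 TPM. Both calls were lost with 6 of 8 libraries left out, among them Pax5(+/+) replicate 1, where the limma adjusted p was 0.105 for Tkt and 0.201 for Rpia. Rpe, ribulose phosphate epimerase, at 17.4 to 35.1 TPM over all libraries, and Taldo1 did not pass the test.

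Among the genes that set the level of fructose bisphosphates, Pfkfb4 (chr9:108988272-109032236, plus strand) and Pfkfb3 encode bifunctional enzymes that make and remove the allosteric activator of phosphofructokinase. Pfkfb4 read 6.95 and 7.05 TPM in Pax5(+/+), 8.18 and 8.83 TPM in Pax5(+/-), 8.51 and 7.23 TPM in Pax5(R31Q/-), and 19.5 and 16.6 TPM in Pax5(fl/fl) Vav-Cre, so that both libraries of the last genotype were above all others. Its log2 fold change against Pax5(+/+) was 1.25 ± 0.16 (limma adjusted p = 0.000864). Pfkfb3 read 75.2 and 71.0 TPM in Pax5(+/+) and fell to 47.4 and 53.7 TPM in Pax5(fl/fl) Vav-Cre (log2 fold change -0.53 ± 0.12, limma adjusted p = 0.0119). Tigar, which removes fructose bisphosphates, read 6.44 to 8.91 TPM over all libraries and had a log2 fold change of 0.04 ± 0.18.

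**Figure D3:**
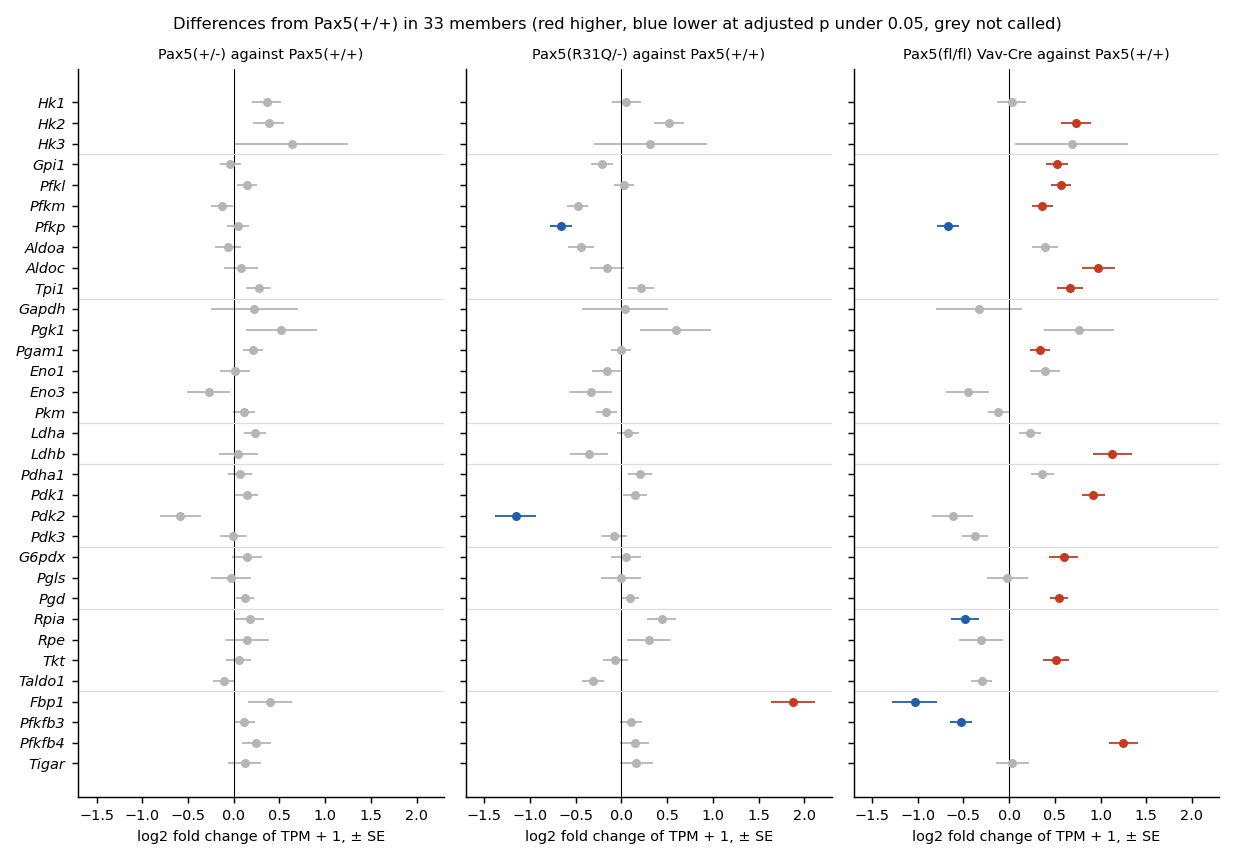
Log2 fold changes of TPM + 1 against Pax5(+/+) (x axes, points with SE bars) of the 33 tested members in pathway order (y axis, grey lines between steps) in Pax5(+/-), Pax5(R31Q/-) and Pax5(fl/fl) Vav-Cre cells. Red points are higher and blue points lower at an adjusted p under 0.05, and the 3 panels share the Pax5(+/+) libraries. There are 0, 3 and 17 colored points.

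Taking R31Q against Pax5(fl/fl) Vav-Cre cells directly, 3 of 33 members were higher in R31Q and 14 lower, beside 19.9% of all genes higher and 14.7% lower. The higher ones were Fbp1, Rpia (0.92 ± 0.16, limma adjusted p = 0.004) and Pfkfb3 (0.64 ± 0.12, limma adjusted p = 0.00626). Among the lower ones were Ldhb (-1.49 ± 0.21), Aldoc (-1.13 ± 0.18), Pfkfb4 (-1.10 ± 0.16), Pfkm (-0.84 ± 0.12) and Aldoa (-0.84 ± 0.14), for which the R31Q libraries stood at 193 and 187 TPM. The median log2 fold change was -0.21 over the members and 0.13 over all genes. Without Pax5(R31Q/-) replicate 1 the counts were 2 higher and 7 lower (beside 7.51% and 7.42% of all genes), without replicate 2 they were 3 and 7 (8.73% and 7.33%), and without Pax5(fl/fl) Vav-Cre replicate 1 they were 3 and 10 (13.6% and 14.0%). Without Pax5(fl/fl) Vav-Cre replicate 2 they were 5 and 14, beside 33.5% and 15.6% of all genes.

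The proportions of isozymes differed between genotypes for some enzymes and varied little for others. Among the phosphofructokinase genes, Pfkp held 28.3% and 29.3% of the TPM in Pax5(+/+), 28.3% and 28.7% in Pax5(+/-), 22.2% and 20.6% in Pax5(R31Q/-), and 14.8% and 14.9% in Pax5(fl/fl) Vav-Cre. Pfkl held 51.6% and 48.9% in Pax5(+/+), 60.4% and 61.6% in Pax5(R31Q/-), and 61.7% and 63.3% in Pax5(fl/fl) Vav-Cre. Among the pyruvate dehydrogenase kinases the share of Pdk1 was 35.6% and 36.8% in Pax5(+/+), 42.6% and 44.8% in Pax5(+/-), 49.0% and 48.7% in Pax5(R31Q/-), and 59.9% and 61.6% in Pax5(fl/fl) Vav-Cre. The genotypes did not overlap in this share. In Pax5(+/-) and R31Q cells the Pdk1 level itself did not pass the test (limma adjusted p = 1.0 and 0.548), and the share of Pdk2 was 32.8% and 38.2% in Pax5(+/+), 28.3% and 23.03% in Pax5(+/-), 19.8% and 17.9% in Pax5(R31Q/-), and 23.5% and 17.1% in Pax5(fl/fl) Vav-Cre. The level of Pfkl in R31Q likewise did not pass the test, at a log2 fold change of 0.03 ± 0.11. Pfkfb4 made up 8.46% to 10.4% of the Pfkfb3 and Pfkfb4 total in the 6 pro-B cell libraries and 29.1% and 23.7% in Pax5(fl/fl) Vav-Cre. Aldoa held 98.7% to 99.4% of its step, Eno1 93.0% to 97.9% and Ldha 98.2% to 99.5%. These shares are descriptions of 2 libraries each and were not tested.

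**Figure D4:**
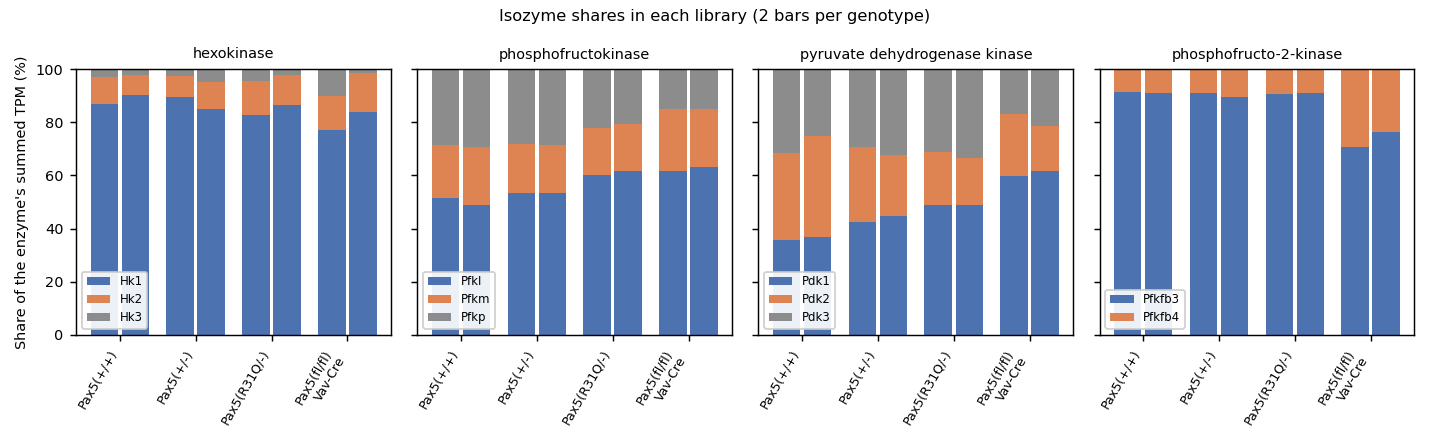
Share of each isozyme gene in the summed TPM of its enzyme (y axis, percent) in the 2 libraries of each genotype (bars). The share of Pfkp falls from 28.3% and 29.3% in Pax5(+/+) to 14.8% and 14.9% in Pax5(fl/fl) Vav-Cre, and that of Pdk1 goes from 35.6% and 36.8% to 59.9% and 61.6%.

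The summed level of the 34 members ran from 4718 to 5378 TPM in the pro-B cell libraries and was 6294 and 5442 TPM in Pax5(fl/fl) Vav-Cre cells. Upper glycolysis went from 930 and 1005 TPM in Pax5(+/+) to 1475 and 1263 TPM. The oxidative pentose phosphate genes stood at 996 and 1195 TPM and at 1306 and 1039 TPM, with overlap. Most of that sum was Pgls, at 807 and 1024 TPM and at 1029 and 782 TPM, whereas G6pdx and Pgd were called higher. A list of 10 cell-division genes, among them Mki67, Top2a and Cdk1, moved the other way. All 10 were lower in Pax5(fl/fl) Vav-Cre cells by limma, and their summed level was 441 and 469 TPM against 2224 and 1401 TPM in Pax5(+/+). It was 2098 and 2501 TPM in Pax5(+/-) and 2221 and 2053 TPM in Pax5(R31Q/-). The part that a different share of dividing cells has in the differences among the members was not tested.

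**Figure D5:**
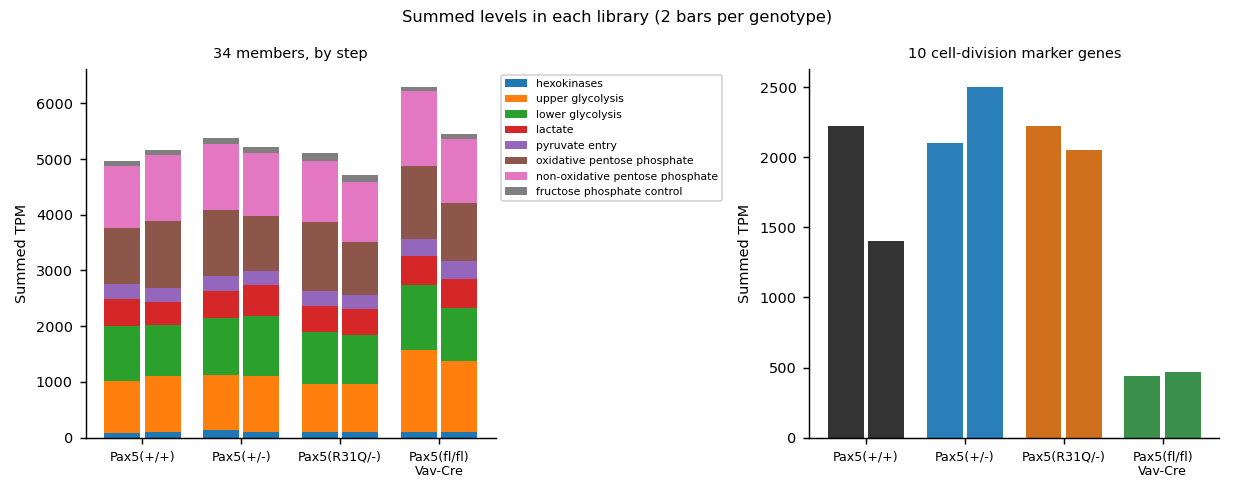
Summed TPM of the 34 members by step (left, stacked) and of 10 cell-division marker genes (right) in the 2 libraries of each genotype (bars, y axes starting at 0). The members sum to 6294 and 5442 TPM in Pax5(fl/fl) Vav-Cre while the division markers sum to 441 and 469 TPM there.

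Of 41 other genes of these pathways, which include glucose and lactate carriers, minor isozymes and further subunits of pyruvate dehydrogenase, 29 were tested. In Pax5(R31Q/-) and in Pax5(+/-) against Pax5(+/+) 0 passed the test by limma, with 3 and 2 at an unadjusted p below 0.05 (10.3% and 6.90%, beside 18.8% and 6.06% of all genes). The nearest in R31Q was Pgam2, the muscle-type phosphoglycerate mutase, at 6.27 and 9.16 TPM in Pax5(+/+) and 4.04 and 2.84 TPM in Pax5(R31Q/-) (limma adjusted p = 0.0549). In Pax5(fl/fl) Vav-Cre 6 rose (20.7%) and 2 fell (6.90%), beside 16.2% and 19.7% of all genes. The changes past 2-fold were those of Slc2a3, a high-affinity glucose transporter, which rose from 17.1 and 17.5 TPM to 39.2 and 40.6 TPM (log2 fold change 1.16 ± 0.12, limma adjusted p = 0.000329), of Bpgm, which makes the bisphosphoglycerate of red blood cells and fell from 81.2 and 56.7 TPM to 25.0 and 27.7 TPM (-1.33 ± 0.19, limma adjusted p = 0.00135), and of Pcx, pyruvate carboxylase, which fell from 6.19 and 5.62 TPM to 2.38 and 2.303 TPM (-1.05 ± 0.15, limma adjusted p = 0.00166). Alas2, the erythroid heme synthesis enzyme, read 101 and 57.7 TPM in Pax5(+/+) and 22.97 and 8.83 TPM in Pax5(fl/fl) Vav-Cre, and its part in the value of Bpgm was not tested. The ubiquitous glucose transporter Slc2a1 read 21.0 to 27.2 TPM across all libraries.

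Pax5 binding at these genes was available as 1 list of ChIP-seq peaks for each of 2 kinds of cultured pro-B cells, 41983 peaks from Rag2(-/-) cells with normal Pax5 and 18821 from Pax5(R31Q/-) cells, so that differences between the lists have no replicate check. The genotype label of the second library names Pax5(R31Q/-), which was used here, whereas its description attaches the R31Q/- alleles to Rag2. By the genotype labels the cells differ in Rag2 as well as in Pax5, and the parts of the 2 in any difference between the lists cannot be told apart. A peak of the normal list came within 1 kb of an annotated start site in 28 of 34 members (82.4%) and a peak of the R31Q list in 29 (85.3%). Among 12893 tested genes with a matching symbol these shares were 68.2% and 73.2%. Fbp1, Pfkp and Pdk2, the members that differed in R31Q pro-B cells, had peaks of both lists at their start sites. For Fbp1 these were chr13:62887647-62888183 and chr13:62887657-62888176, which both overlap the first exon. Hk3 and Ldhb had no peak of either list in or near the gene.

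In 1 of the 28 members, Tpi1, the start-site peak of the normal list (chr6:124814064-124814293, 230 bases) met no R31Q peak, which was also the case for 4.03% of the tested genes with such a peak. Pfkp and Pdk2 each had a further normal peak, within 1 kb of the gene's span but away from start sites, that met no R31Q peak. So did Hk1 and Eno2, making 4 of 34 members (11.8%), beside 18.7% of the tested genes. The peak of Pfkp, chr13:6633517-6633819, lies in intron 2 of the curated transcript with 22 exons. That of Pdk2, chr11:95025971-95026357, lies over the end of the gene. Tpi1 mRNA itself read 246 and 213 TPM in Pax5(+/+) and 263 and 270 TPM in Pax5(R31Q/-) (log2 fold change 0.22 ± 0.14, limma adjusted p = 0.431). Its exons overlap those of Spsb2 on the other strand, which read 6.39 to 13.9 TPM.

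The sequences of the Tpi1 promoter and of the Pfkp intron peak are shown because they carry a normal peak with no R31Q counterpart, and that of the Fbp1 promoter because Fbp1 changed most in R31Q cells. All are from the RefSeq GRCm38 assembly and written in the direction of the gene, and both promoters end at the base before the outermost start site. Capitals mark any match on either strand to 4 motifs searched for, the E-box CACGTG bound by Myc and related factors, the core ACGTG of the hypoxia response element, which an E-box contains on each strand, the GCGTGAC part of the Pax5 paired domain site, and the GC box GGGCGG.
Tpi1 promoter, chr6:124814159-124814408, minus strand: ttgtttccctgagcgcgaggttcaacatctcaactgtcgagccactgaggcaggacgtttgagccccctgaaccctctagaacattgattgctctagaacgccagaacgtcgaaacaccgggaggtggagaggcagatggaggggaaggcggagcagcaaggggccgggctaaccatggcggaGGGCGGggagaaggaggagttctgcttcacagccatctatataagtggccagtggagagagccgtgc
Fbp1 promoter, chr13:62888299-62888532, minus strand: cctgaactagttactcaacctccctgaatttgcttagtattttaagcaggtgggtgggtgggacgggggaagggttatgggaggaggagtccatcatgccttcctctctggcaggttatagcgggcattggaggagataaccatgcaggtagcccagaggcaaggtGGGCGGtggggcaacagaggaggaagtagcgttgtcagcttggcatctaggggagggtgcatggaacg
Pfkp intron 2, chr13:6633518-6633817, minus strand: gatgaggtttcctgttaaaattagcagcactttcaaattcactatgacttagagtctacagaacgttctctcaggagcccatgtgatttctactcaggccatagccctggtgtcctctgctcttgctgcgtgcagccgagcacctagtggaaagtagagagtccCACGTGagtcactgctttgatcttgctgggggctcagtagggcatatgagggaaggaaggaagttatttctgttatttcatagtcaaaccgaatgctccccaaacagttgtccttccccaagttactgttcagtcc
Each promoter holds 1 GC box and none of the other motifs, and the Pfkp intron stretch holds 1 E-box. The normal peak covers 135 of the 250 printed bases of Tpi1, while the peaks of Fbp1 begin downstream of the printed bases. Over the 250 bases before all 49 start sites of the members in the RefSeq promoter table, the GC box occurred in 53.1% and in 32.7% of 32851 promoters of all genes, the E-box in 8.16% and 6.02%, ACGTG in 28.6% and 16.6%, and GCGTGAC in 6.12% and 1.78%. Among the promoters of tested genes the 4 shares were 56.2%, 8.25%, 21.4% and 3.38%. For the members, GCGTGAC occurred before 3 start sites of 2 members, with overlapping stretches of Eno1 among them. ACGTG occurred before 14 start sites of 11 members, with overlapping stretches of Aldoa among them. A match of letters is a description and does not show binding.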

How the data were processed

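Bone marrow cells sorted from mice of 4 Pax5 genotypes were analysed by mRNA sequencing with 2 libraries per genotype. The authors aligned 50-base single reads to the mouse genome (GRCm38) with STAR 2.4.2, kept uniquely mapping reads and counted them on RefSeq genes, and the deposited values are TPM, which sum to 1000000 per library. Pax5 ChIP-seq peaks of 2 genotypes were called by the authors with MACS and were used by position only.

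Groups came from the genotype labels. Levels were tested as log2(TPM + 1) with limma 3.58.1 in R 4.3.3 (empirical Bayes with trend) over all 8 libraries, for the 13436 genes with at least 1 TPM in 1 library, with Benjamini-Hochberg adjustment over all of them at 0.05. Fold changes are on this scale, which understates those of low genes. Past 3-fold also required a mean over 5 TPM. An exact permutation test of 2 against 2 libraries cannot reach 0.05, so none was used. Whole read counts, within 0.0001 reads, were recovered from the TPM steps for 18206 of 18206 genes above 0 in at least 2 libraries. They served for depth and for limma-voom, chosen in place of the study's count model as an alternative. The fit was tested on simulated data. No paired analysis was possible because the labels give no replicate numbers, and replicates were numbered in accession order.

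Repeated 50-base stretches were counted as exact matches on either strand of the genome outside the gene. Peaks met when they shared at least 1 base. All members are named with their step, with values in every library for those changed in R31Q or single-copy cells or past 2-fold in Pax5(fl/fl) Vav-Cre cells, and other pathway genes are named where they changed past 2-fold. The members and lists were chosen with earlier results of these data known.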

Additional observations from a re-analysis of the deposited data

How the results depend on the processing

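The alternatives were pseudocounts of 0.1 and 0.5, no filter, a minimum of 5 TPM, fits to 2 genotypes alone, median-ratio scaling, quantile normalization, no variance trend, limma-voom on recovered reads, and each of the 8 libraries left out. No direction of a called member reversed under any of them, and with libraries left out 76 of 296 refits of called members lost the call. For Pax5(R31Q/-) against Pax5(+/+), 1 member in place of 2 was lower without the filter, which lost Pdk2, 3 were lower with limma-voom, which added Pfkm, and with libraries left out 0 to 1 were higher and 0 to 3 lower. For Pax5(+/-) the counts stayed at 0 and 0 throughout. For Pax5(fl/fl) Vav-Cre against Pax5(+/+), a fit to the 2 genotypes alone had fewer libraries behind its spread. It called 4 higher and 1 lower, beside 9.44% and 10.8% of all genes. With libraries left out, some calls of this comparison were lost, as given above. For Pax5(R31Q/-) against Pax5(+/-), 1 member was higher at a minimum of 5 TPM, in the fit to 2 genotypes and with limma-voom, and 1 was lower in the fit to 2 genotypes, with both scalings and with limma-voom. With libraries left out 0 were higher and 0 to 1 lower. For Pax5(R31Q/-) against Pax5(fl/fl) Vav-Cre, 2 to 5 were higher and 7 to 14 lower with libraries left out. At a threshold of 2-fold in place of 3-fold, 1 member (Pdk2) was called lower in Pax5(R31Q/-), and in Pax5(fl/fl) Vav-Cre 2 were called higher (Ldhb and Pfkfb4) and 1 lower (Fbp1). When peaks had to share at least 50% of both widths, 6 members in place of 1 had a normal start-site peak that met no R31Q peak (21.4% of those with a peak, beside 15.8% of tested genes), while windows of 0.2 and 2.5 kb left the count at 1. The causes of these shifts were not tested. Levels of Gapdh, Pgk1, Pgam1 and Eno1 rest on the small part of each transcript that is unique in the genome, and 2 libraries per genotype limit all tests.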
